A study of Rattus norvegicus with 2 samples.

Results

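Counts of rno-miR-341, rno-miR-1188-5p, rno-miR-770-5p and rno-miR-770-3p were described in small RNA libraries of the rat hippocampus. These are all rows of the table named miR-341, miR-1188, miR-370 or miR-770, with any arm, and they make up 4 of its 390 miRNAs. They belong to 3 genes, since no row named for miR-370 was found and that miRNA was not analysed here. The group was chosen by the rise of miR-341 and its neighbours in the experimental library against the control library, so that every ratio between the libraries is given as a description and without a test. The experimental group consisted of Wistar rats of 5 months in which status epilepticus (SE) was induced by electrical stimulation of the lateral nucleus of the right amygdala. The control group consisted of Wistar rats of the same age with the same implanted electrodes that were handled alike but received no current, called sham stimulation in the labels. According to the methods of the study, the animals were male, were perfused with saline and were sampled 24 hours after SE, and the RNA came from the left hippocampus, opposite the stimulated side. RNA was pooled within each group into 1 library, and the methods give 6 rats per group and time but not how many of them entered each pool. Replicate animals were thus not sequenced apart.

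The miRNAs of this group come from the Dlk1-Dio3 region, an imprinted domain in which the protein-coding genes Dlk1, Rtl1 and Dio3 are expressed from the paternal chromosome. The long non-coding RNAs Meg3 (also called Gtl2), the antisense transcript of Rtl1, Rian and Mirg are expressed from the maternal chromosome, and many miRNAs and small nucleolar RNAs are cut from them. The region is strongly expressed in the brain, and miR-134 from its distal cluster is known to limit the growth of dendritic spines. A mature miRNA finds its target mRNAs mainly through its seed, bases 2 to 8 from the 5′ end.

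In the GRCr8 annotation, 59 miRNA genes lie between Dlk1 and Dio3 on chromosome 6, and 41 of them had a row in the table. Mir770 is the first of these genes after Dlk1 and lies within the span of Meg3. Mir341 and Mir1188 follow each other as the 14th and 15th, between Mir136 and Mir370, outside the annotated span of any host gene. Exons and introns of the host transcripts were not used here. The mature sequences (RefSeq, GRCr8) are shown with the seed in capitals, because none of the 4 seeds is shared.
rno-miR-341: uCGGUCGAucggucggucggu
rno-miR-1188-5p: uGGUGUGAgguugggccagga
rno-miR-770-5p: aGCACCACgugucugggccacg
rno-miR-770-3p: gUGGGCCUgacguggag

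All 4 names matched a RefSeq entry. No other mature rat miRNA among the 693 of that table has bases 2 to 8 in common with any of them, and none of the other rows among the 297 with a matched sequence has bases 2 to 7 in common. The remaining rows of the counts had no sequence and were not compared. MiR-341 is built from a repeated 4-base unit, UCGG, which occurs 4 times in its 21 bases. UCGG, searched on the strand of the miRNA only, is found in 22 of the 693 mature sequences (3.17%), and 1 of these, miR-341, holds it at least 3 times. MiR-341 also has 5 C-to-G steps (a C followed by a G), the most of any mature sequence in the table. MiR-1188-5p and miR-770-5p share a run of 7 bases outside their seeds, UGGGCCA, which is present in 3 of the 693 mature sequences, the third being miR-134-3p. A shared run is a description of letters and not of a function. The entry of miR-770-3p is 17 bases long, whereas the authors discarded reads shorter than 18 bases. Its counts thus came from reads longer than the sequence shown, and the 5′ end and seed of the reads counted are not known.

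The precursors are shown with the counted arms in capitals, because they place the arms compared in the results. They are on the plus strand of chromosome 6 in GRCr8, at chr6:134298084-134298159 for Mir770, chr6:134347815-134347910 for Mir341 and chr6:134348153-134348234 for Mir1188. Each of the 4 mature sequences was found in 1 of the 419 RefSeq hairpins, so that no other precursor of that table carries the same letters.
Mir770: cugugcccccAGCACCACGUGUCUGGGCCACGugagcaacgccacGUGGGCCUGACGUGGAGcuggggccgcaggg
Mir341: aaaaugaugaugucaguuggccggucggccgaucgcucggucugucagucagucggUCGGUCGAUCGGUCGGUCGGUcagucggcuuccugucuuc
Mir1188: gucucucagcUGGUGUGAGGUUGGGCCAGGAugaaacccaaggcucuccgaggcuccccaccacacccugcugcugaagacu

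The repeat continues beyond the mature miR-341. Its hairpin holds UCGG 8 times, the highest number in any hairpin, and 4 of the 419 hairpins hold it at least 3 times. The Mir1188 hairpin has only its 5p arm in the counts, and both arms of Mir770 were counted.

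The table held 5678090 counts for the experimental group and 6703056 for the control group. Levels are given as counts per 1000000 counts of these sums (CPM), and 1 count was worth 0.176 CPM in the experimental group and 0.149 CPM in the control group. All intervals (95%, exact Clopper-Pearson) describe counting error alone and leave out the variation between animals. Of 6 neuronal marker miRNAs 4 were analysed here, and their summed level was 47964 CPM after SE and 58082 CPM in the control group. The lower sum came from miR-128-3p (37763 against 52854 CPM), while the log2 ratios were 1.06 for miR-124-3p, 0.57 for miR-137-3p and 0.43 for miR-138-5p, and the median of the list was 0.50. The 3 analysed of 5 oligodendrocyte names summed to 1993 and 2070 CPM, the 3 of 6 leukocyte and microglia names to 546 and 457 CPM, and the 3 of 5 erythrocyte names to 39.4 and 17.8 CPM. The median log2 ratio was 0.038 for the oligodendrocyte list, where miR-219-2-3p and miR-338-3p both had 0.038. There miR-219-5p was lower after SE (283 against 405 CPM), with a log2 ratio of -0.51 (counting interval -0.60 to -0.42). For the leukocyte and microglia list the median was 0.0073. In this list miR-21-5p (496 against 404 CPM) carried the higher sum, and miR-142-5p (0.0073) and miR-146a-5p (-0.28) had intervals that held 0. None of these 13 marker rows was at 0 in either library. Of the erythrocyte miRNAs, miR-451-5p had 196 counts after SE against 100 in the control library, miR-144-5p 16 against 5 and miR-144-3p 12 against 14. The 2 rows of miR-144 did not reach 30 counts. The part of blood cells or of other changes in cell content in the values below was not tested. In whole tissue, fewer cells of a type and less RNA per cell cannot be told apart.

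MiR-341 was the most abundant of the 4 in both libraries. It had 4297 counts in the experimental group, which is 757 CPM (counting interval 734 to 780), and 975 counts in the control group, which is 145 CPM (counting interval 136 to 155). The intervals of the libraries did not overlap, and the level was 5.20-fold higher after SE (counting interval 4.85 to 5.58), a log2 ratio of 2.38 (counting interval 2.28 to 2.48). By count miR-341 ranked 45th of 390 in the experimental library and 87th in the control library. Its share of all counts from miRNAs between Dlk1 and Dio3 was 7.88% (counting interval 7.66 to 8.11) after SE and 1.55% (counting interval 1.46 to 1.65) in the control group. Among the miRNAs of that region it ranked 6th by count in the experimental library and 14th in the control library.

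MiR-1188-5p is cut from the next hairpin and was much less abundant. It had 90 counts after SE, 15.9 CPM (counting interval 12.7 to 19.5), and 54 counts in the control group, 8.06 CPM (counting interval 6.05 to 10.5). Again the intervals did not overlap. The log2 ratio was 0.98 (counting interval 0.47 to 1.49), and its upper bound lay below the lower bound of miR-341. For each 100 reads of miR-1188-5p there were 4774 reads of miR-341 in the experimental library and 1806 in the control library. This quotient within a library needs no scaling, and it was 2.64-fold higher after SE.

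MiR-770 comes from the first miRNA gene after Dlk1, and its arms were counted apart. The 5p arm was the rarest of the 4, with 39 counts after SE, 6.87 CPM (counting interval 4.88 to 9.39), and 21 counts in the control group, 3.13 CPM (counting interval 1.94 to 4.79). Its log2 ratio was 1.13, with an interval of 0.33 to 1.97 that spans folds of 1.26 to 3.92. The 3p arm had 640 counts after SE, 113 CPM (counting interval 104 to 122), and 651 counts in the control group, 97.1 CPM (counting interval 89.8 to 105). Here the intervals of the libraries overlapped. The log2 ratio was 0.21 (counting interval 0.055 to 0.37) with the sums of the table. With edgeR's TMM normalization it was 0.067 (counting interval -0.093 to 0.23). DESeq2's size factors gave 0.16 (counting interval -0.0037 to 0.32), and unscaled copies -0.025 (counting interval -0.18 to 0.14). The 3p arm thus had no certain direction.

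**Figure D1:**
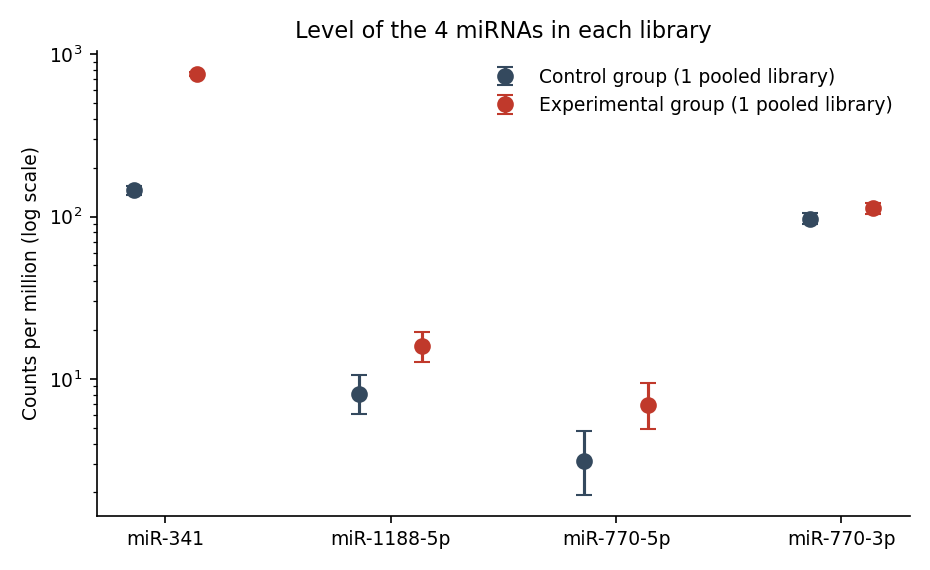
Level of the 4 miRNAs in CPM on a log scale, with 1 point per pooled library and bars for the 95% exact Clopper-Pearson interval of counting error. MiR-341 lies at 757 in the experimental library and at 145 in the control library, and the bars of the libraries overlap for miR-770-3p alone.

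The order of the levels by reads was the same in both libraries, miR-341 before miR-770-3p, miR-1188-5p and miR-770-5p. No counting intervals of neighbours in this order overlapped within a library. Reads were not divided by length, and capture during library preparation can differ between sequences, so that this is an order of reads and not of molecules. The 4 miRNAs together took 0.0892% of all counts after SE (counting interval 0.0868 to 0.0917) and 0.0254% in the control group (counting interval 0.0242 to 0.0266). MiR-341 contributed 84.8% of their reads in the experimental library and 57.3% in the control library.

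The arms of miR-770 held different shares of its reads. The 5p arm made up 5.74% (counting interval 4.12 to 7.77) of 679 reads after SE and 3.13% (counting interval 1.94 to 4.74) of 672 reads in the control group, and these intervals overlapped. The log2 ratio of the 5p arm exceeded that of the 3p arm by 0.92. Across 55 precursors with at least 30 counts in either library for both arms, the difference between the arms had a median size of 0.38 and ranged from -3.33 to 2.50 (5p minus 3p). The difference of miR-770 was 11th in size among them and the largest of the 13 such precursors between Dlk1 and Dio3. MiR-770 entered this comparison because its 5p arm reached 30 counts in the experimental library alone. The group was also chosen from this contrast, so that nothing is read from these ranks. The higher ratio was on the 5p arm for 10 of the 13 and for 29 of all 55. In both libraries the 3p arm of miR-770 remained the major product.

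A fold of 2 (a log2 ratio above 1) was passed by 2 of the 4 miRNAs, miR-341 and miR-770-5p, where 26 of the 285 miRNAs with at least 30 counts in either library passed it (9.12%). A log2 ratio above 2, the size used by the study, was passed by miR-341, against 9 of the 285 (3.16%). The ratios of the study are not the same as those used here. MiR-99b-3p, which the study selected as lower by the same size, had a log2 ratio of only -1.61. The study also set bounds on its P value, and miR-341 was not among the miRNAs that it selected for qRT-PCR. With unscaled copies 16 miRNAs lay above a log2 ratio of 1 and 12 below -1, against 26 and 6 with the sums of the table. Nothing is read from the counts of the 4, because they were chosen from this contrast and because miR-770-5p reached 30 counts only in the experimental library. Their median log2 ratio was 1.05, and that of the 285 was 0.069. MiR-341 was 6th of the 285 by log2 ratio, after 2 predicted miRNAs, miR-874-3p, miR-20a-5p and miR-345-3p. With 4297 reads it had more counts after SE than each of these 5, so that its counting interval was the narrowest. MiR-770-5p was 22nd, miR-1188-5p 29th and miR-770-3p 113th.

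**Figure D2:**
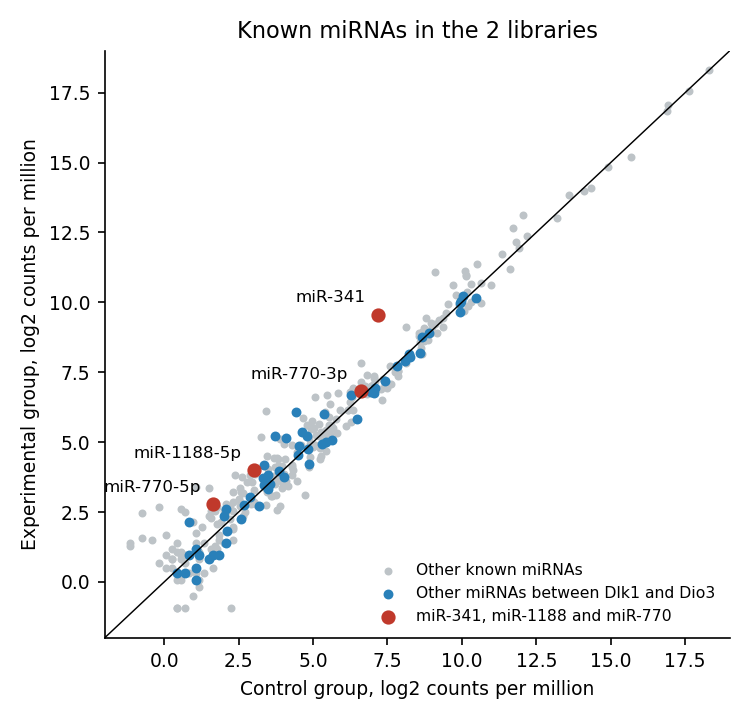
Known miRNAs by log2 CPM in the control (x axis) and experimental (y axis) library, with counts under 3 set to 3 and the line of equal levels drawn. MiR-341 stands above the line with 757 against 145 CPM, and miR-770-3p lies close to it.

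The other miRNAs between Dlk1 and Dio3 were grouped by gene order. The Rtl1-antisense group (with the adjoining miR-493) had 16 rows, of which 10 reached 30 counts, and the cluster from miR-379 to miR-410 had 42 rows, of which 34 reached 30 counts. In the Rtl1-antisense group the median log2 ratio was 0.13, with a range from -0.40 to 0.73. The interval lay above 0 for 4 of the 10 and below 0 for 2, and with edgeR's TMM normalization for 2 and 4, so that the group had no certain direction. In the cluster from miR-379 to miR-410 the median was -0.096, with a range from -0.66 to 1.65, and the interval lay above 0 for 8 of the 34 and below 0 for 11. Under TMM these counts were 5 and 17, under the size factors of DESeq2 7 and 14, and for unscaled copies 5 and 19. Over all 285 miRNAs with at least 30 counts, the interval lay above 0 for 109 and below 0 for 69 with the sums of the table. TMM, the size factors of DESeq2 and unscaled copies shift every log2 ratio down, by -0.15, -0.059 and -0.24. The counts over the 285 are not given under these, so that no fall of the cluster is read from its counts. A log2 ratio above 1 was found for 0 of the 10 and for 3 of the 34, against 26 of all 285 (9.12%). With TMM and with unscaled copies it was found for 2 of the 34, against 20 and 16 of all. A ratio below -1 was found for 0 of these 44, against 6 of all 285.

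The 3 of the distal cluster were miR-668, miR-134-5p and miR-539-5p. MiR-668 had 386 reads in the experimental library against 145 in the control library, and its log2 ratio was 1.65 (counting interval 1.37 to 1.94). MiR-134-5p had 209 reads against 88, with a log2 ratio of 1.49 (counting interval 1.12 to 1.86). Mir134 and Mir668 adjoin each other in the gene order, as Mir341 and Mir1188 do, and the 2 intervals overlapped. MiR-539-5p had 203 reads against 115, with a log2 ratio of 1.06 (counting interval 0.72 to 1.40) that was 0.91 with TMM and 0.82 with unscaled copies. By log2 ratio miR-341 was 1st, miR-770-5p 4th, miR-1188-5p 6th and miR-770-3p 16th of the 48 rows with at least 30 counts in this region.

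**Figure D3:**
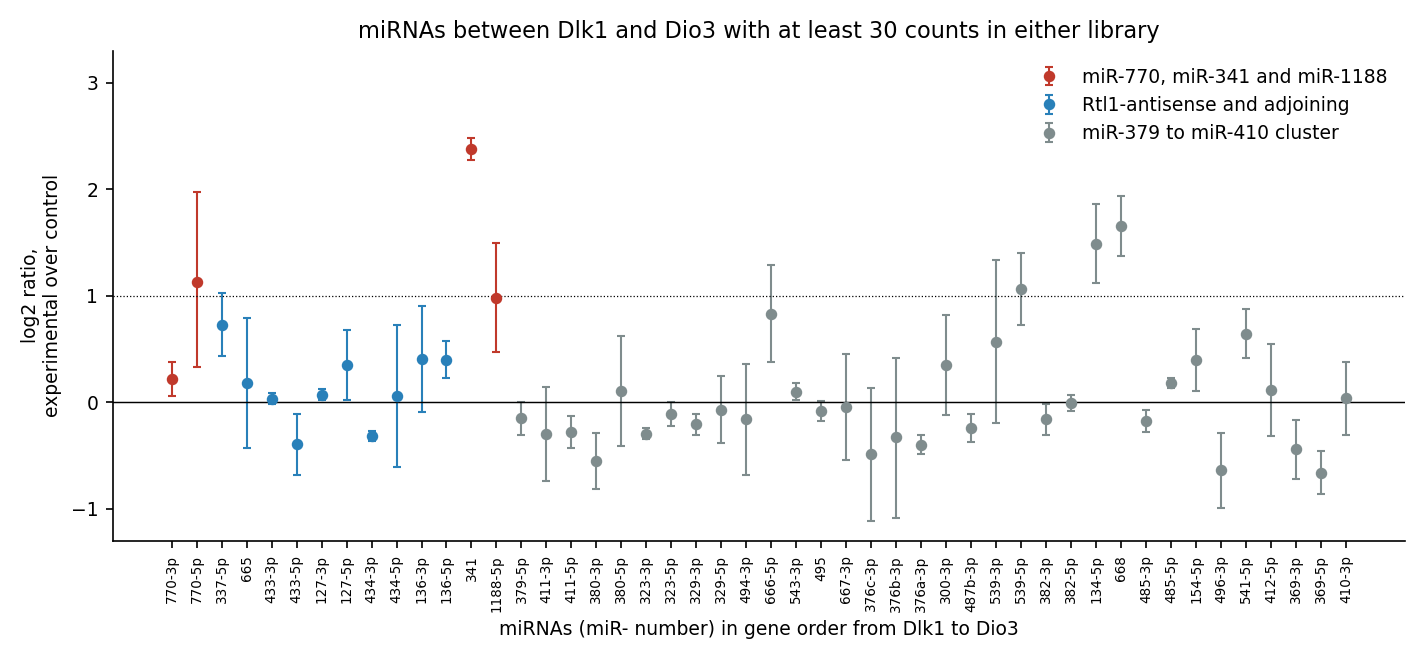
Log2 ratio of the 48 miRNAs between Dlk1 and Dio3 with at least 30 counts in either library, in gene order, with bars for the 95% counting interval and a dotted line at 1. MiR-341 at 2.38 stands apart from the miRNAs before it, and miR-668 (1.65) and miR-134-5p (1.49) form the next highest pair.

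The nearest genes on either side of Mir341 did not share its ratio. Before it, miR-136-5p had 579 reads in the experimental library against 518 in the control library, and its log2 ratio was 0.40 (counting interval 0.23 to 0.57), and miR-136-3p had 75 reads against 67, with a log2 ratio of 0.40 (counting interval -0.093 to 0.90). MiR-434-3p had 6530 reads against 9596, with a log2 ratio of -0.32 (counting interval -0.36 to -0.27), and miR-434-5p, with 38 and 43 counts, one of 0.061 (counting interval -0.61 to 0.72). MiR-127-3p, the miRNA best known from the Rtl1 antisense transcript, had 5994 reads against 6735, with a log2 ratio of 0.071 (counting interval 0.021 to 0.12), against 0.35 for miR-127-5p. MiR-434-3p and miR-127-3p were the most abundant of these neighbours. The log2 ratio of miR-127-3p was -0.077 with TMM and -0.17 with unscaled copies, so that its direction depends on the scaling, whereas miR-434-3p was below 0 under each, from -0.56 to -0.28.

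After Mir1188 the next genes with rows were Mir379, Mir411 and Mir380. MiR-379-5p had 624 reads in the experimental library against 818 in the control library, and its log2 ratio was -0.15 (counting interval -0.30 to 0.00092). MiR-411-5p had 618 reads against 886, with a log2 ratio of -0.28 (counting interval -0.43 to -0.13), and miR-380-3p had 191 reads against 330, with a log2 ratio of -0.55 (counting interval -0.81 to -0.29). The other arms of these genes had ratios of -0.69 for miR-379-3p, -0.29 for miR-411-3p and 0.11 for miR-380-5p, each with an interval that held 0 with the sums of the table. The ratios of miR-341 and miR-1188-5p in this stretch of the gene order thus stood between lower values. These ran from -0.55 to 0.40 among the neighbouring rows with at least 100 counts in either library. MiR-1188-5p had only 90 and 54 counts, and its interval (0.47 to 1.49) overlapped that of miR-136-5p (0.23 to 0.57), among others. Of the 44 other rows of the region with at least 30 counts, 28 had an upper bound below its lower bound. For miR-341 all 44 did.

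Quotients within a library, which no scaling can move, were higher after SE for miR-341. This follows from the log2 ratios given above, so that the quotients restate them and add no separate support. For each 100 reads of miR-136-5p there were 742 reads of miR-341 in the experimental library and 188 in the control library, and for each 100 reads of miR-127-3p there were 71.7 and 14.5. The quotient to miR-434-3p was 6.48-fold higher after SE, that to miR-379-5p 5.78-fold and that to miR-770-3p 4.48-fold.

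The genes after Mir770 with rows were Mir493, Mir337 and Mir540. MiR-337-5p had 233 reads in the experimental library against 166 in the control library, and its log2 ratio was 0.73 (counting interval 0.44 to 1.02). MiR-540-5p had 25 reads against 12, with a log2 ratio of 1.30 (counting interval 0.25 to 2.43), and miR-540-3p had 29 reads against 27, with a log2 ratio of 0.34 (counting interval -0.46 to 1.15). As for miR-770, the 5p arm of miR-540 had the higher ratio, but it did not reach 30 counts. For miR-493-5p (20 and 29 counts), miR-493-3p (8 and 14) and miR-337-3p (11 and 15) the intervals of the log2 ratio held 0, and that of miR-493-5p ran from -1.20 to 0.57.

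The known miRNAs with the most similar levels in the 2 libraries were found by the distance in log2 CPM, where 0 means equal levels in both. Each miRNA has only 2 points, so that this is a likeness of level and ratio alone. Nearest to miR-341 were miR-181d-5p at a distance of 1.05 (3144 counts after SE against 1875 in the control library), miR-1224 at 1.53 and miR-99b-5p at 1.57. No known miRNA was closer to it than 1.05. Nearest to miR-1188-5p were miR-455-3p at 0.14 (82 and 56 counts), miR-504 at 0.19 (81 and 50 counts) and miR-136-3p at 0.41. Nearest to miR-770-5p were miR-219-1-3p at 0.10 (41 and 22 counts), miR-28-3p at 0.17 and miR-106b-3p at 0.25. For miR-770-3p they were miR-342-3p at 0.15 (647 and 589 counts) and miR-129-5p and miR-760-3p, both at 0.22. Of these 12, only miR-136-3p lies between Dlk1 and Dio3.

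The 4 mature sequences share a high content of G and C, from 61.9% in miR-1188-5p to 70.6% in miR-770-3p, against a median of 47.8% over the 297 rows of the table with a RefSeq sequence. MiR-341 has 66.7% and miR-770-5p 68.2%. The value of miR-770-3p is that of its 17-base entry, and the reads counted for it were longer. Sequences were matched for 236 of the 263 known miRNAs with at least 30 counts (89.7%). Over these 236, Pearson's r between GC content and log2 ratio was 0.22 and Spearman's rho 0.20. Over the 46 of them between Dlk1 and Dio3 the values were 0.53 and 0.54, and 0.43 and 0.46 over 42 without the 4 members, while outside the region they were 0.15 and 0.13 over 190. All points come from the same pair of libraries, so that these correlations describe the libraries. The part of base composition in the ratios was not tested.

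Within the region 8 rows with at least 30 counts had a GC content of at least 61.9%. Besides the 4 members these were miR-668 (66.7%, log2 ratio 1.65), miR-666-5p (70.0%, log2 ratio 0.83), miR-667-3p (63.6%, log2 ratio -0.042) and miR-323-5p (72.7%, log2 ratio -0.11). Over the 236 known miRNAs with at least 30 counts and a matched sequence, 28 others were at or above 61.9%. Their median log2 ratio was 0.20, with a range from -1.61 to 3.19. Of these 28, 6 lay above 1, against 26 of all 285 miRNAs with at least 30 counts (9.12%).

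**Figure D4:**
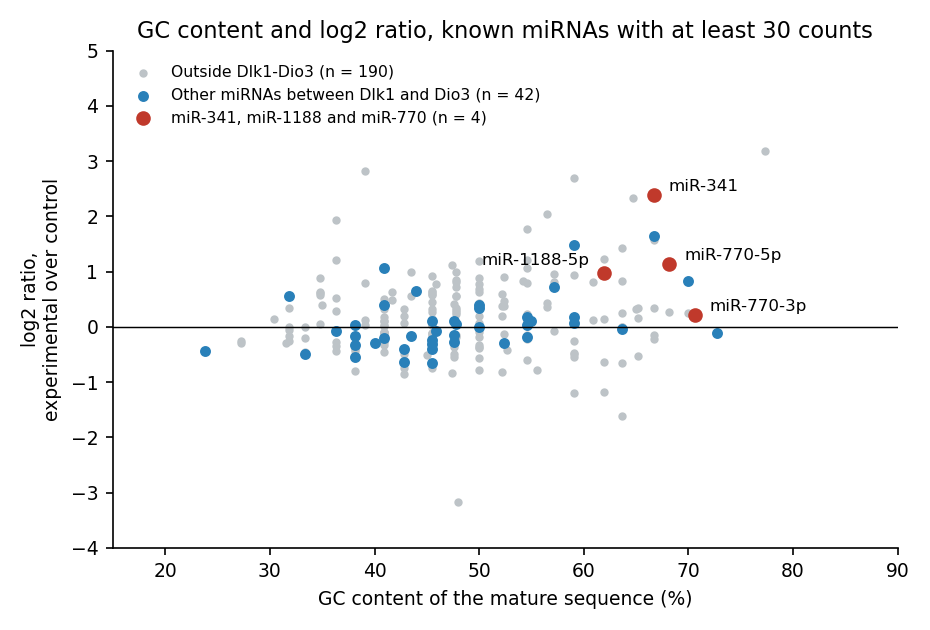
GC content of the mature sequence (x axis, percent) against the log2 ratio of experimental over control (y axis) for 236 known miRNAs with at least 30 counts, 1 point each. The 4 members lie between 61.9% and 70.6% GC with log2 ratios from 0.21 to 2.38, and grey points of similar GC content lie on both sides of 0.

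The scaling of the libraries moved all ratios alike. Against the sums of the table, log2 ratios shifted by -0.15 with edgeR's TMM normalization, by -0.059 with DESeq2's size factors, by 0.031 with the clean reads of the study and by -0.24 with unscaled copies. MiR-341 then ranged from 2.14 to 2.41, miR-770-5p from 0.89 to 1.16 and miR-1188-5p from 0.74 to 1.01, and the intervals of these 3 stayed above 0 under each. MiR-1188-5p was above 1 with the clean reads and below 1 otherwise, and miR-770-5p was below 1 with TMM and unscaled copies. Relative to the median of the 285 miRNAs, which moves with the scaling, miR-341 stood at 2.31, miR-770-5p at 1.06, miR-1188-5p at 0.91 and miR-770-3p at 0.15 on the log2 scale.

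**Figure D5:**
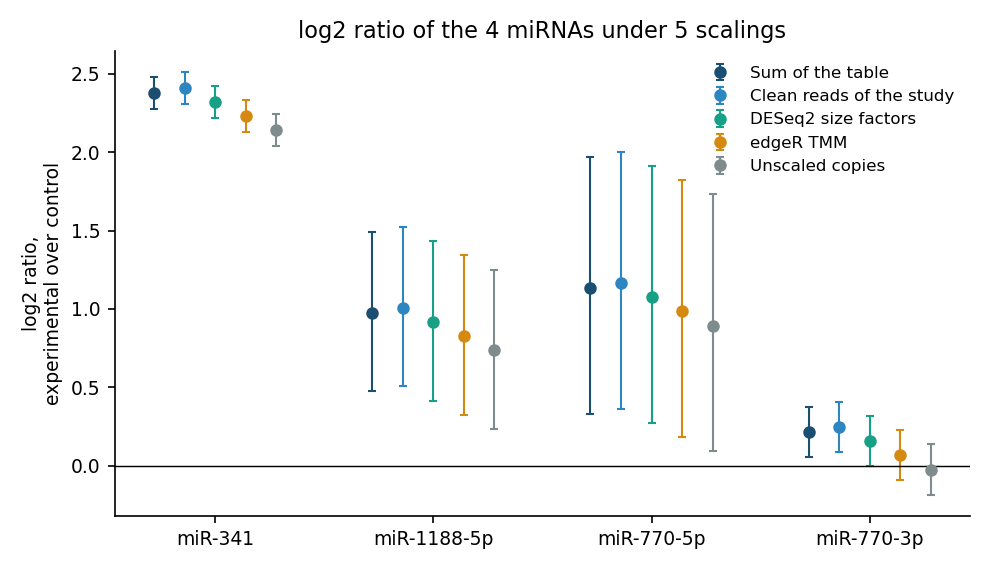
Log2 ratio of the 4 miRNAs under 5 scalings of the libraries, with bars for the 95% counting interval. MiR-341 lies above 2 under each, from 2.14 to 2.41, and miR-770-3p crosses 0 with unscaled copies.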

How the data were processed

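For each known or predicted miRNA, the authors deposited the unscaled count of reads in 2 pooled small RNA libraries. The header mentions normalized data, but the values are whole numbers with different sums. Per the methods, low-quality reads, reads under 18 nt and sequences read once were discarded. The build is rn5 per the labels, and the aligner, the counter and the miRBase release are not given in the sources used here. The labels also describe preparation of cRNA, which the methods do not, and the methods were followed. The table holds 2 columns of p-values from the comparison of the authors, which were not used.

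Counts were divided by the sums of the table, 5678090 and 6703056. Counts under 3 were set to 3 before a ratio was taken, and 95% exact Clopper-Pearson intervals were taken from the share of a miRNA's reads in the experimental library. No p-value was computed, because each condition had 1 library. The members and lists were chosen with earlier results of these data known. MiRNAs were named by rule: the members, the 3 genes with rows on each side, the 3 nearest in level, rows with the same seed, miRNAs of the region with a log2 ratio beyond 1 and at least 30 counts, and marker lists as groups. MiR-323-5p, miR-666-5p and miR-667-3p were named after their values were seen, as were the miRNAs ranked above miR-341 and single markers. Gene order and sequences came from RefSeq GRCr8, and 297 of 328 known names matched a sequence. Alternatives were other scalings (edgeR's TMM, DESeq2's size factors, the clean reads of the study, unscaled copies), a pseudocount of 1, no minimum or 100 counts, and known miRNAs only. The ratio, interval and call were tested on simulated data with counting error alone, where changes were large or absent. That test does not cover variation between animals or smaller changes. Software was Python 3.11.15, numpy 2.4.6, scipy 1.17.1, pandas 2.3.3, matplotlib 3.10.9, R 4.3.3, edgeR 4.0.16 and DESeq2 1.42.0.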

Additional observations from a re-analysis of the deposited data

How the results depend on the processing

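No paired analysis was possible because only 1 pooled library was sequenced per condition, and no library could be left out either. The log2 ratio of miR-341 was 2.23 with TMM and 2.14 with unscaled copies, against 2.38 with the sums of the table, and that of miR-770-3p turned to -0.025 with unscaled copies. The median log2 ratio of the Rtl1-antisense group also turned negative with TMM (-0.023) and unscaled copies (-0.11). Of all miRNAs, 26 had a log2 ratio above 1, 9 above 2 and 6 below -1. With unscaled copies 16 were above 1 and 12 below -1. With no minimum count the numbers were 49, 21 and 25, since more miRNAs entered, and with at least 100 counts 16, 5 and 2, since fewer did. The correlation of GC content with the log2 ratio was 0.53 when limited to rows between Dlk1 and Dio3, a choice made after seeing the data. Depth limits miR-770-5p most, whose 21 control counts leave a log2 interval of 0.33 to 1.97.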
